A study of Mus musculus with 2 samples.

Results

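N6-methyladenosine (m6A) sites were called at single-base resolution by GLORI in the newborn mouse cerebellum and cerebrum, and the sites described here are those the cerebellum library alone held although the gene was methylated in both. They numbered 7623, or 9.61% (95% Wilson interval 9.40% to 9.81%) of the 79355 cerebellum sites, out of 219409 different sites over both libraries. A site belonged to them if it was listed for the cerebellum and not, at the same chromosome, position and strand, for the cerebrum. It also had to have a DRACH 5-mer in GRCm38 (with any base but C at D, a purine at R, any base but G at H, and the methylated A at the centre) and to lie in a GENCODE M21 protein-coding gene interval on the same strand with at least 1 DRACH site common to both libraries. The sites were therefore selected on the readout itself, so their presence in one library and absence from the other is no finding, and absence can mean an unmethylated, unexpressed or too thinly covered adenosine.

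Each tissue was represented by 1 library, prepared from poly(A)+ RNA of a female F1r mouse at postnatal day 0 (P0). F1r is the cross of a C57BL/6J (C57) mother with a PWK/PhJ (PWK) father, and both groups share this genotype, sex, age and GLORI treatment. The study's methods speak of 1 mouse as the source of both tissues. The lists do not hold a methylation rate or a read count. Depth is therefore unknown, no p-value between the tissues was computed, and every interval covers the sites and genes of these 2 libraries only.

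m6A is written on nuclear RNA by a complex around METTL3 and METTL14, which methylates adenosines in the DRACH context, and is read by YTH-domain proteins that act on splicing, translation and decay. Exon junction complexes deposited at splice junctions keep the methyltransferase away from nearby sequence, so that m6A is concentrated in long internal exons, around stop codons and in 3′ UTRs. Loss of METTL3 from the developing brain is known to disturb the growth of the cerebellum, which holds granule and Purkinje neurons. GLORI deaminates unmethylated adenosines with glyoxal and nitrite so that they are read as G, while m6A is still read as A.

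The names of both lists carry one and the same abbreviation, so the tissue was taken from the sample records and checked against marker genes. Over all genes the cerebrum list was the longer, with 188295 sites against 79355 and 88016 DRACH sites against 49274. All 22 forebrain genes listed held a DRACH site in the cerebrum and 11 of them held one in the cerebellum, with 381 and 68 sites in all. Tbr1, a transcription factor of the cortex, had 17 cerebrum sites and 0 in the cerebellum. Conversely, 8 of the 28 genes of the Purkinje and cerebellar GABAergic list had DRACH sites in the cerebellum alone. Among them were the hindbrain and midbrain factors En1 with 5 and En2 with 8 and the GABAergic factor Tfap2b with 17. Another 2 genes of this list had DRACH sites in the cerebrum alone, Pcp4 with 1 and Gdf10 with 4. In bulk tissue, fewer cells of a type and less RNA per cell cannot be told apart. The granule cell list was mixed. Barhl1 had 11 cerebellum and 0 cerebrum sites, whereas Neurod1 had 0 and 15, Pax6 had 0 and 2, and Atoh1 and Gabra6 had none in either library. Of the mature Purkinje markers, Pcp2, Calb1 and Car8 also had no DRACH site in either library. Although both libraries were labelled female, 14 cerebellum and 30 cerebrum sites lay on chromosome Y, and 0 of the sites described here were among them.

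Sites with the canonical 5-mer GGACT that lay within 50 nt of a DRACH site called in both libraries, in the same exon, are shown first, because that neighbourhood yielded a listed site in the cerebrum too. From the 12 such genes taken by the naming rule, the 6 with the closest shared neighbour are printed with that neighbour, in GRCm38 and in the 5′ to 3′ direction of the transcript, with the DRACH 5-mer in capitals.
Cdh8 cerebellum-only site, chr8:99030184-99030208, minus strand: agaaaaaaatGGACTtgcaaggact
Cdh8 shared site, chr8:99030174-99030198, minus strand: ggacttgcaaGGACTctgctgctga
Zfhx3 cerebellum-only site, chr8:108950605-108950629, plus strand: ctgtgatgggGGACTccaaatgaag
Zfhx3 shared site, chr8:108950592-108950616, plus strand: ccatgctcttAGACTgtgatggggg
Rev3l cerebellum-only site, chr10:39827782-39827806, plus strand: ttccttggaaGGACTtcgcctgtgg
Rev3l shared site, chr10:39827766-39827790, plus strand: aatttgaaggAGACTtttccttgga
Usp29 cerebellum-only site, chr7:6961360-6961384, plus strand: tggtgagctgGGACTgtatcatctg
Usp29 shared site, chr7:6961379-6961403, plus strand: catctggattTAACTttgagagacg
Ndst4 cerebellum-only site, chr3:125438346-125438370, plus strand: tagctctgaaGGACTgctctgtgaa
Ndst4 shared site, chr3:125438319-125438343, plus strand: ggtttcctttGAACTtattcaataa
Tro cerebellum-only site, chrX:150646395-150646419, minus strand: ctttggtgatGGACTgggcagcagc
Tro shared site, chrX:150646425-150646449, minus strand: ttttggtggtGAACTgggcactagc

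In Cdh8, a classical cadherin, 2 GGACT sites lay 10 nt apart in the 3′ UTR of exon 12 of 12, and the upstream one, 368 nt past the stop codon, was listed for the cerebellum alone. In Zfhx3, a zinc finger homeodomain transcription factor, the cerebellum-only GGACT was in the coding sequence of exon 15 of 16 and the shared AGACT lay 13 nt upstream of it. The other 4 pairs were also in coding sequence, in exon 14 of 32 of Rev3l (the catalytic subunit of DNA polymerase zeta), the last of 9 exons of Usp29, exon 2 of 14 of Ndst4 and exon 12 of 13 of Tro, a MAGE family gene. Their gaps were 16, 19, 27 and 30 nt. The cerebellum-only site of Rev3l had a cerebrum site of any motif closer still, at 4 nt. In each of the 6 pairs but Cdh8, the shared neighbour had a 5-mer other than GGACT.

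The opposite case is a stretch of transcript in which cerebellum-only sites followed each other without a cerebrum DRACH site. Of the 8 longest such runs (by number of sites, then by span), the middle sites of 6 are shown.
Lhx1, chr11:84519225-84519249, minus strand: atccatggacAGACTccaccagcgg
Otx2, chr14:48658065-48658089, minus strand: aatctgtgctAGACTtcaaaactgt
Zfhx4, chr3:5400357-5400381, plus strand: aaagtctttaGAACCttgtattcct
Lef1, chr3:131111095-131111119, plus strand: gtcccctccgGAACCggtgtcctcg
Rims1, chr1:22287491-22287515, minus strand: agactttgaaGGACCtagaactgat
Ebf3, chr7:137195303-137195327, minus strand: cctttcccatGAACActtgcagttg

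The Lhx1 site lay in the 3′ UTR, 311 nt past the stop codon, and its nearest cerebrum site of any motif was 705 nt away. The Otx2 site was also in the 3′ UTR, 353 nt from the nearest cerebrum site, and the Ebf3 site was in the 3′ UTR 837 nt from the nearest. The Zfhx4 site was in the coding sequence of exon 10 of 11 and the Lef1 site in the 5′ UTR. The Rims1 site was in the 3′ UTR, 398 nt from the nearest cerebrum site. The 5-mers of Zfhx4, Lef1 and Rims1 end in C.

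Within the genes methylated in both libraries, 7623 of 46173 cerebellum DRACH sites were absent from the cerebrum, a share of 16.5% (16.2% to 16.9%). Over the chromosomes this share ran from 14.3% on chromosome 17 to 18.6% on chromosome 16. It varied far more with the 5-mer. It was lowest for GGACT, where 654 of 6058 cerebellum sites or 10.8% (10% to 11.6%) were absent. GGACA followed with 12.3%, GAACT with 12.7% and AGACT with 12.9%, and the intervals of neighbours in this order overlap. At the other end stood TAACA with 48.7%, AAACC with 51.0% and TAACC, where 59 of 79 sites or 74.7% (64.1% to 83.0%) were absent.

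The same holds for the letters around the methylated A. Shared sites in the 3416 genes that hold a cerebellum-only site, 28004 in number, served as the comparison, with standard errors clustered by gene. GGACT made up 8.58% of the cerebellum-only sites and 13.5% of the shared ones, a difference of -4.89 percentage points (95% interval -5.65 to -4.12). A T after the methylated AC was found in 51.5% and 62.1%, a difference of -10.6 points (-11.9 to -9.30), and G before the methylated A in 56.7% and 64.2%, a difference of -7.43 points (-8.70 to -6.15). A final C was found in 17.1% and 10.9%, a difference of 6.12 points (5.21 to 7.03), and T as the first base in 22.9% and 16.8%, a difference of 6.07 points (5.01 to 7.13). The lower share of a final T held within the 3′ UTR, at -10.9 points (-12.7 to -9.11), and within the CDS, at -15.6 points (-17.9 to -13.3).

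These letters were still more frequent in cerebellum-only sites than at DRACH adenosines that neither library listed. Of the 311399 such adenosines on the 3268 isoforms that carry a cerebellum-only site, 28.7% had a T after AC, 51.4% a G before the A, and 3.87% were GGACT. The cerebellum-only sites lay between these adenosines and the shared sites on each of the 3 measures. Bases outside the 5-mer differed less. At position 4 after the methylated A, T was found at 38.7% of cerebellum-only and 43.4% of shared sites, a difference of -4.71 points (-5.99 to -3.43). At position 3 after it, A was found at 19% and 14.8%, a difference of 4.27 points (3.28 to 5.25). At position 4 before it, A was found at 36.5% and 41.0%, a difference of -4.52 points (-5.79 to -3.26).

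Of the cerebellum-only sites, 6221 or 81.6% (80.7% to 82.5%) lay in exons of complete coding isoforms, 278 in other exons and 1124 or 14.7% (14.0% to 15.6%) in introns. Introns held 2.35% of the shared sites in the same genes, a difference of 12.4 points (10.8 to 13.9). Read the other way, 59.3% (57.0% to 61.4%) of the intronic cerebellum DRACH sites were absent from the cerebrum, against 14.5% (14.1% to 14.8%) of those in coding exons. Repeat-masked sequence held 8.21% of the exonic cerebellum-only sites and 6.78% of the exonic shared ones, 1.43 points more (0.677 to 2.18).

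On the spliced isoforms the cerebellum-only sites sat further downstream than the shared sites. The 3′ UTR held 61.8% of the exonic cerebellum-only sites, the CDS 35.2% and the 5′ UTR 3.04%, against 53.1%, 44.2% and 2.74% of the shared sites. The difference in the 3′ UTR was 8.70 points (7.07 to 10.3), and it fell to 2.85 points (1.57 to 4.13) when it was taken within genes. In the 3′ UTR the median distance from the stop codon was 779 nt for the 3842 cerebellum-only sites and 554 nt for the 14096 shared sites. Beyond 1000 nt past the stop codon lay 25.9% and 17.9% of the exonic sites, a difference of 8.02 points (6.71 to 9.32). The uncalled DRACH adenosines had 34.3% beyond 1000 nt and 48.9% in the 3′ UTR. As a share of the 3′ UTR's length, the mean position was 40.2% and 33.0%, a difference of 7.22 points (6.09 to 8.35).

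Both classes peaked just past the stop codon, with a lower peak for the cerebellum-only sites. Within 200 nt of the stop codon lay 17.3% of the exonic cerebellum-only sites and 19.4% of the shared ones, a difference of -2.11 points (-3.20 to -1.01). Within genes the difference was -6.40 points (-7.50 to -5.29), and against the shared sites of all genes methylated in both it was -5.35 points (-6.42 to -4.27). Among 5-mers that end in T the shares near the stop codon were 14.2% and 18.9%, a difference of -4.71 points (-6.10 to -3.33). Among the other 5-mers they were 20.4% and 20.2%, a difference of 0.207 points (-1.45 to 1.86). Of the uncalled DRACH adenosines, 6.58% lay in this window.

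Cerebellum-only sites also came closer to splice junctions. Within 100 nt of an exon junction lay 10.5% of the exonic cerebellum-only sites and 5.83% of the shared ones, a difference of 4.65 points (3.80 to 5.51), while 35.6% of the uncalled DRACH adenosines lay there. In the 25 nt next to a junction the shares were 2.11%, 0.516% and 13.6%. The difference within 100 nt was 4.88 points (3.68 to 6.08) for 5-mers that end in T and 4.57 points (3.39 to 5.76) for the others. Within 200 nt of a junction it was 2.55 points (1.39 to 3.71) over all 5-mers. Internal exons of up to 200 nt held 171 cerebellum-only sites and 79 shared sites in the same genes, or 2.75% and 0.297%. Internal exons over 400 nt held 14.5% and 22.8%, a difference of -8.24 points (-9.64 to -6.84).

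**Figure D1:**
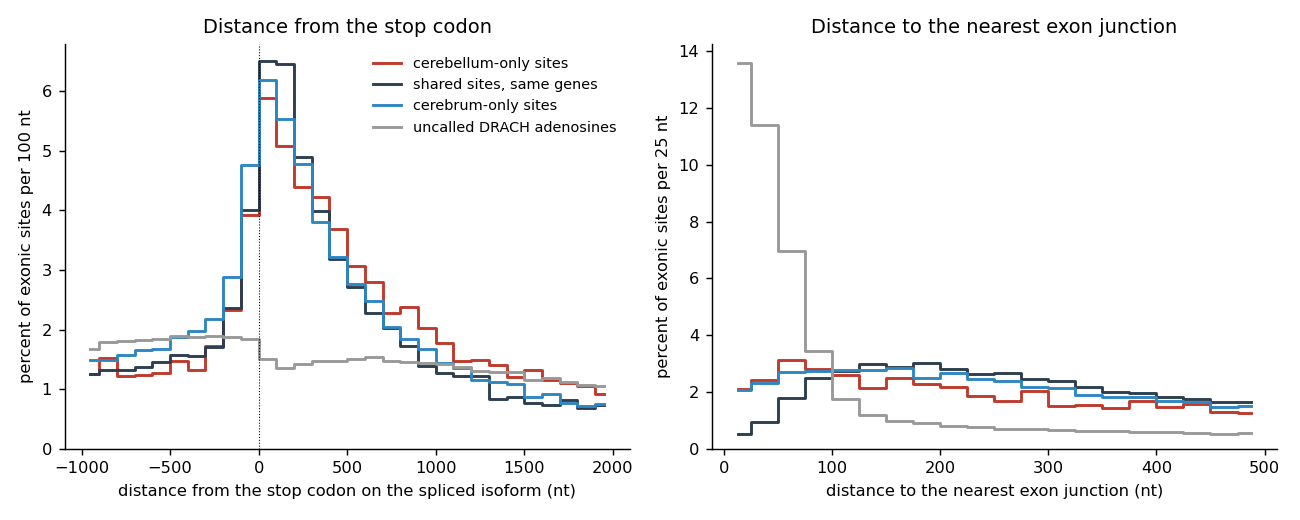
Percent of exonic DRACH sites by distance from the stop codon in bins of 100 nt (left) and by distance to the nearest exon junction in bins of 25 nt (right), for cerebellum-only sites, shared sites of the same genes, cerebrum-only sites of all genes methylated in both and uncalled DRACH adenosines. In the 100 nt past the stop codon the cerebellum-only line stands at 5.88% and the shared line at 6.50%, and in the 25 nt next to a junction they stand at 2.11% and 0.516%.

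The mirror class, DRACH sites of the cerebrum alone, comprised 24563 sites in the genes with a cerebellum-only site, 19716 of them exonic. A T after AC was found in 51.5% of the cerebellum-only and 52.7% of the cerebrum-only sites, a difference of -1.22 points (-2.52 to 0.0814). Introns held 14.7% and 15.4%, a difference of -0.648 points (-1.95 to 0.650). The window of 100 nt around junctions held 10.5% and 9.75% of the exonic sites, a difference of 0.727 points (-0.189 to 1.64). Within 200 nt of the stop codon lay 17.3% and 16.3%, a difference of 1.01 points (-0.117 to 2.15). The lower share there than in shared sites was thus not particular to the cerebellum-only class. Other features differed between the classes. The 3′ UTR held 61.8% and 51.6% of the exonic sites, a difference of 10.1 points (8.47 to 11.8). GGACT made up 8.58% and 12%, a difference of -3.37 points (-4.12 to -2.63), and a G before the methylated A was found in 56.7% and 63.3%, a difference of -6.54 points (-7.84 to -5.24).

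Folding of the spliced transcript with 50 nt on either side gave a mean probability of being unpaired of 0.577 for the exonic cerebellum-only adenosines and 0.557 for the shared ones. The difference was 0.0202 (0.01 to 0.0304), and it was 0.0174 (0.00726 to 0.0275) with 100 nt on either side. The GC share of the bases around the site was 0.451 and 0.455, a difference of -0.00399 (-0.00687 to -0.00111).

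Most exonic cerebellum-only sites lay in an exon that carried cerebrum sites as well. The rule admits only genes with a DRACH site listed for the cerebrum, so a high share is partly set by the selection. The same shares were not computed for shared or cerebrum-only sites. Of the 6221 exonic cerebellum-only sites, 5781 or 92.9% (92.3% to 93.5%) lay in an exon with a DRACH site listed for the cerebrum, and 3998 or 64.3% (63.1% to 65.4%) lay between 2 such sites of the same exon. A further 840 or 13.5% lay in the last exon downstream of every cerebrum DRACH site there, and 440 or 7.07% lay in an exon without one. Measured by distance, 41.6% (40.5% to 42.7%) of all cerebellum-only sites had a cerebrum site of any motif within 50 nt, and 25.6% had a shared DRACH site that close. Among exonic sites the first share was 47.5%, against 64.5% of the shared sites, a difference of -17.0 points (-18.5 to -15.5). In their own library, 39.9% of the exonic cerebellum-only sites and 55.9% of the shared ones had another cerebellum site within 50 nt, a difference of -16.0 points (-17.4 to -14.5). Another cerebellum-only site lay within 50 nt of 7.02% and within 1000 nt of 40.4% of them.

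**Figure D2:**
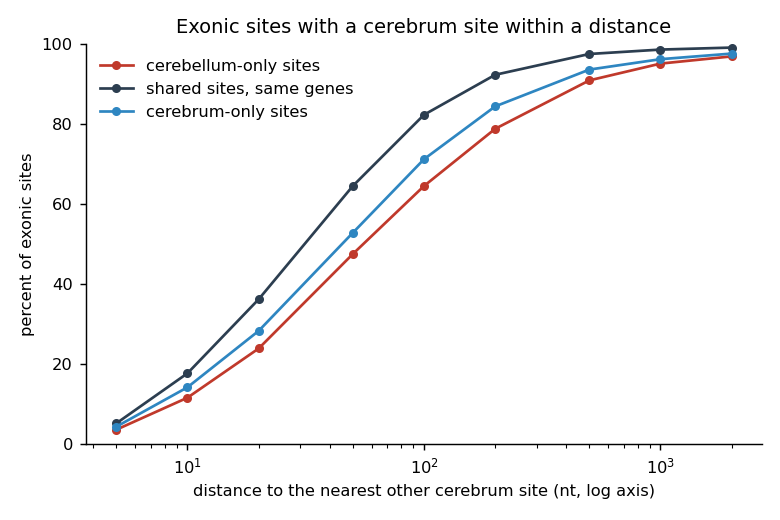
Percent of exonic sites (vertical axis) with another cerebrum site of any motif within the distance on the horizontal log axis, for cerebellum-only sites, shared sites of the same genes and cerebrum-only sites of all genes methylated in both. At 50 nt the lines stand at 47.5%, 64.5% and 52.8%, and at 1000 nt at 95.1%, 98.6% and 96.2%.

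The rule took in 6825 coding genes, each site being counted for 1 gene, and 3416 of them or 50.1% held at least 1 cerebellum-only site. Most held few. A single site was found in 1739 genes, 2 sites in 784, at least 5 in 308, at least 10 in 53 and at least 20 in 5. The share of genes with a cerebellum-only site rose with the number of shared sites, from 27.4% of the 1889 genes with 1 shared site to 94.2% of the 343 genes with 20 or more. Between the same groups of genes, the share of cerebellum DRACH sites absent from the cerebrum fell from 27.6% (25.9% to 29.3%) to 12.9% (12.3% to 13.5%). Shared sites are also the rest of the denominator of this share, so grouping genes by them partly sets the fall. In 401 genes, or 5.88%, the cerebellum-only sites outnumbered the cerebrum-only sites, and 171 of these held at least 3 cerebellum-only sites. In 192 genes with a cerebellum-only site there was no cerebrum-only DRACH site at all.

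The 25 genes with the most exonic cerebellum-only sites held 337 of them in all with introns included, 802 shared and 273 cerebrum-only sites, and the cerebellum-only sites outnumbered the cerebrum-only ones in 15 of the 25. This order was set by the counts themselves and is a description. Zfhx4 came first with 38 cerebellum-only, 67 shared and 8 cerebrum-only sites. Its relative Zfhx3 followed with 29, 70 and 6. Both are large zinc finger homeodomain transcription factors of differentiating neurons, and 28 and 22 of their cerebellum-only sites lay in the CDS.

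Onecut2, a cut homeodomain factor, had 14 cerebellum-only sites, all in the 3′ UTR, with 6 shared and 3 cerebrum-only. Lhx1, a LIM homeodomain factor of Purkinje cell progenitors, had 10 cerebellum-only, 1 shared and 0 cerebrum-only sites. Otx2, a homeodomain factor of the anterior brain and of the choroid plexus, had 10, 1 and 1, and Mab21l1, a gene of eye development, had 10, 4 and 0. Zfp521, a zinc finger factor of neural differentiation, had 9, 20 and 18.

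Pclo and Bsn, scaffolds of the presynaptic active zone, had 17 and 12 cerebellum-only sites beside 90 and 41 shared and 32 and 22 cerebrum-only sites. Fat3, an atypical cadherin of neurite placement, had 12, 76 and 42. Map1a, a microtubule-associated protein, had 9, 51 and 12, and Akap6, an anchor of protein kinase A, had 9, 45 and 20. The delta-protocadherins Pcdh17 and Pcdh9 had 11 and 28 cerebellum-only sites, 19 of those of Pcdh9 in introns.

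Ndst4, a heparan sulfate sulfotransferase, had 13 cerebellum-only, 4 shared and 0 cerebrum-only sites. Chrna4, a nicotinic acetylcholine receptor subunit, had 11, 4 and 3, and Kcnk9, a leak potassium channel, had 9, 9 and 4. Aqp4, the astrocyte water channel, had 10, 6 and 1. Paqr8, a membrane progestin receptor, had 10, 29 and 5, and Ntng1, which encodes netrin-G1, had 10, 30 and 2. Trp53bp1, a DNA damage response protein, had 9, 16 and 5, and the zinc finger gene Zkscan2 had 12, 28 and 13. The imprinted genes Usp29, Zim1 and Zdbf2 had 15, 11 and 9 cerebellum-only sites beside 6, 9 and 12 cerebrum-only ones, as counts that do not separate the parental alleles.

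Among the 15 genes with the most exonic cerebellum-only sites and no cerebrum-only DRACH site, Ndst4, Mab21l1 and Lhx1 are named above. Ebf3, a transcription factor of neuronal differentiation, had 8 cerebellum-only and 5 shared sites, all in the 3′ UTR. Lef1, which carries Wnt signals to chromatin, had 6 and 2, Dgkk, a diacylglycerol kinase, 6 and 1, and Kcnc4, a voltage-gated potassium channel, 5 and 3. A further 7 genes, Olfm1, Ulk2, Lbh, Gde1, Tmem38a, Abi1 and Adcy8, had 3 cerebellum-only sites each and between 1 and 21 shared ones.

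**Figure D3:**
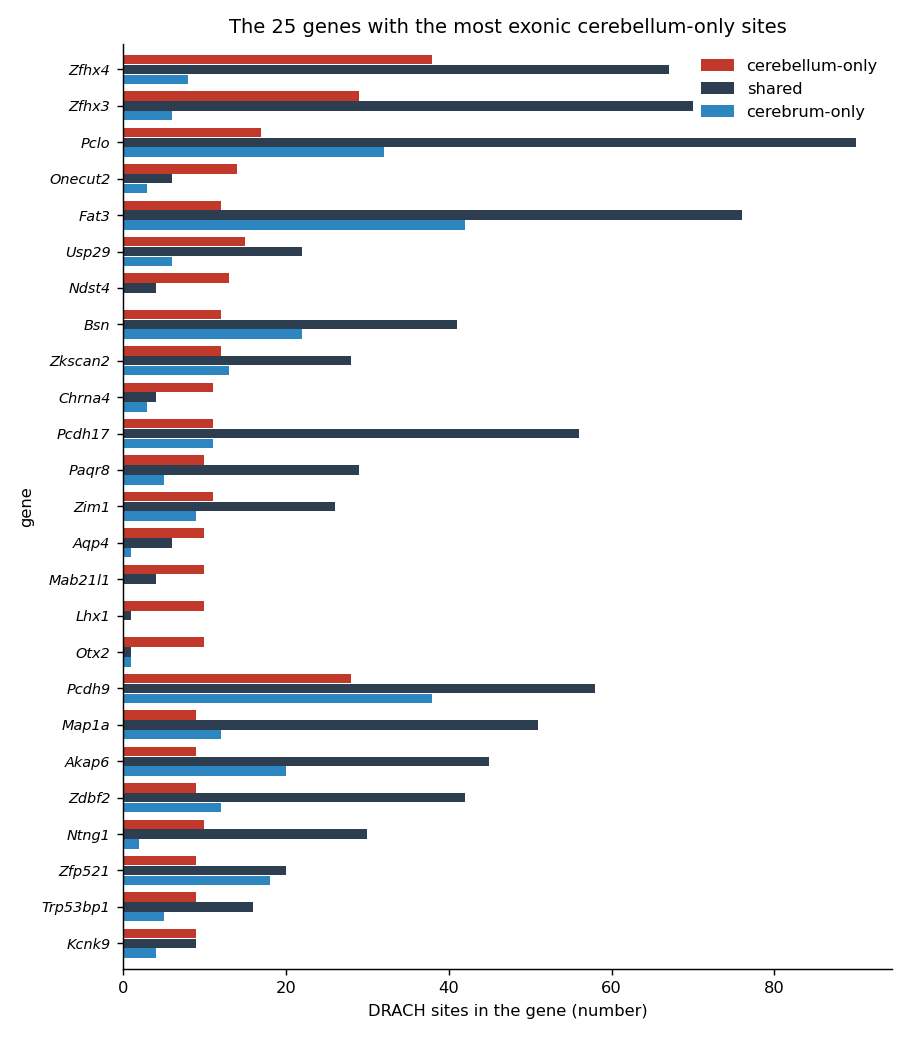
Number of DRACH sites (horizontal axis) in each of the 25 genes with the most exonic cerebellum-only sites (vertical axis), introns included, listed for the cerebellum alone, for both libraries and for the cerebrum alone. The cerebellum-only bars run from 38 sites in Zfhx4 to 9 in Kcnk9, and Ndst4, Mab21l1 and Lhx1 have 0 cerebrum-only sites.

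Along single isoforms, runs of at least 3 consecutive cerebellum-only sites without a cerebrum DRACH site between them numbered 95 in 81 genes and took up 330 sites, and runs of at least 5 numbered 9. The longest was that of Lhx1, with 10 sites over 3242 nt of transcript from exon 1 to exon 5 of 5 (chr11:84518699-84525346, minus strand), without a cerebrum site of any motif inside the run. Otx2 had 7 in 596 nt of its 3′ UTR (chr14:48657795-48658390, minus strand). Zfhx4 had 7 in 403 nt of exon 10 of 11, in the coding sequence (chr3:5400189-5400591, plus strand), in a gene with 67 shared sites elsewhere. Lef1 and Rims1, a presynaptic active zone protein, had runs of 6, and Ndst4, Ebf3 and Aqp4 runs of 5, as did Zfhx4 a second time, over 254 nt. Of the first 8 runs, that of Ndst4 held 1 cerebrum site outside DRACH and the other 7 held 0.

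**Figure D4:**
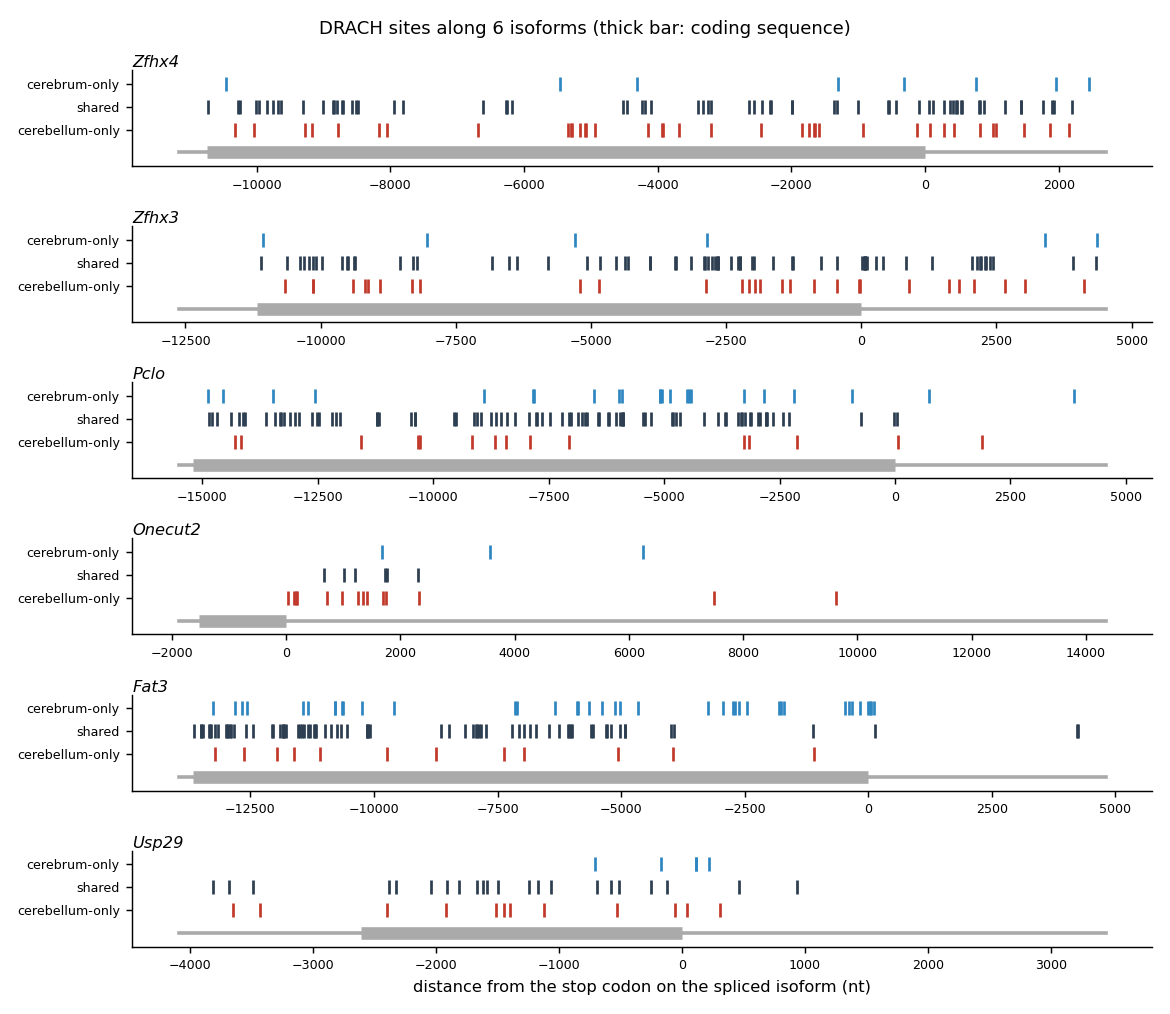
DRACH sites along 1 isoform of each of the 6 genes with the most exonic cerebellum-only sites, by distance from the stop codon in nt (horizontal axis), with the coding sequence as the thick bar and rows for cerebellum-only, shared and cerebrum-only sites. In Zfhx4 a run of 7 cerebellum-only sites takes up 403 nt of the coding sequence, and in Onecut2 the cerebellum-only sites all lie past the stop codon.

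Intronic cerebellum-only sites were concentrated in long genes. They occurred in 483 genes, with a median gene interval of 184 kb against 34.4 kb over all genes of the rule, and 486 of the 1124 lay in the 53 genes with at least 5. The median was not computed for genes with intronic shared or cerebrum-only sites, so this length is not shown to be particular to the class. Genes with many intronic cerebellum-only sites, named after their counts were seen, were Tenm2 with 24, a teneurin of synapse formation, and Nrg3 with 19, a neuregulin, beside the 19 of Pcdh9. With exons included, the same genes held cerebrum-only sites in larger number, 63 against 32 cerebellum-only sites in Tenm2, 55 against 19 in Nrg3 and 38 against 28 in Pcdh9. A cerebrum site lay within 50 nt of 10.5% (8.84% to 12.4%) of the intronic cerebellum-only sites, of 16.3% (15.2% to 17.4%) of the intronic cerebrum-only sites and of 34.4% (30.9% to 38.2%) of the intronic shared sites. Intronic sites whose 5-mer ends in T were absent from the cerebrum in 54.1% of cases (51.2% to 56.9%), and the others in 68.0% (64.5% to 71.3%).

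Gene lists were read against 50.1% of genes with a cerebellum-only site, 5.88% with more cerebellum-only than cerebrum-only sites, a median of 1 cerebellum-only site per gene, and 16.5% of sites absent. No list was matched for the number of shared sites per gene, which is itself part of the denominator of the share absent. The Purkinje and cerebellar GABAergic list stood highest among lists with at least 20 sites. Of its 12 genes of the rule, 11 held a cerebellum-only site, 5 held more of them than cerebrum-only sites, and the median was 5 per gene. In all it had 69 cerebellum-only and 73 shared sites, so that 48.6% (40.5% to 56.7%) were absent from the cerebrum. In coding exons alone, an alternative chosen after seeing the data, 47 sites stood beside 70 shared ones, or 40.2% absent (31.7% to 49.2%), against 14.5% over all genes of the rule. The count was led by Rora, a nuclear receptor required in Purkinje cells, with 19 cerebellum-only, 8 shared and 7 cerebrum-only sites, 10 of the 19 being intronic. Lhx1 had 10, 1 and 0, and Ebf3 had 8, 5 and 0.

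The granule cell list was near the overall share. Of its 16 genes of the rule, 11 held a cerebellum-only site and 2 held more than cerebrum-only sites, and with 21 cerebellum-only and 121 shared sites 14.8% (9.88% to 21.6%) were absent. Meis1, a homeodomain factor, had 5 cerebellum-only, 3 shared and 2 cerebrum-only sites, its relative Meis2 had 4, 25 and 18, and the basic helix-loop-helix factor Nhlh2 had 3, 2 and 1. Nfib, a nuclear factor I gene, had 2, 13 and 25. In the list of the hedgehog pathway, which drives granule progenitor division, 2 of 6 genes held a cerebellum-only site, the receptor Ptch1 with 4 and Disp2 with 5. Of the forebrain list, 3 of 11 genes did so, Cux1 with 2 and Lhx2 and Cux2 with 1 each, and with 4 cerebellum-only and 64 shared sites 5.88% (2.31% to 14.2%) were absent. No Hox gene of the hindbrain list met the rule.

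Among lists of neuronal wiring, with introns included, the synaptic adhesion and receptor lists lay above 16.5%, while the interval of the axon guidance list held it. In coding exons alone, none of these lists had an interval above the share over all genes of the rule. In the synaptic adhesion list, 30 of 35 genes held a cerebellum-only site and 216 cerebellum-only sites stood beside 678 shared ones, or 24.2% absent (21.5% to 27.1%), among them 32 in Tenm2 and 19 each in Cntnap2 and Lrrtm4. The cerebellum-only sites outnumbered the cerebrum-only ones in 1 of these 35 genes. Of the glutamate and GABA receptor genes, 27 of 32 held a cerebellum-only site and 93 sites stood beside 353 shared ones, or 20.9% absent (17.3% to 24.9%), with 8 each in the AMPA receptor subunit gene Gria4 and the metabotropic receptor genes Grm5 and Grm7, and 7 in 3 further genes. The axon guidance list had 24 of 32 genes, and 86 sites beside 353 shared ones, or 19.6% absent (16.1% to 23.6%), led by the netrin receptor gene Unc5d with 10, the semaphorin genes Sema6a and Sema6d with 9 each and the ephrin receptor gene Epha7 with 8. Of the cerebellum-only sites, 134 of 216 in the synaptic adhesion list, 31 of 93 in the receptor list and 27 of 86 in the axon guidance list were intronic. In coding exons alone the shares absent were 11.8% (9.52% to 14.5%), 15.9% (12.6% to 19.9%) and 14% (11% to 17.8%), against 14.5% (14.1% to 14.8%) over all genes of the rule.

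The chromatin list and the list of m6A genes lay below 16.5%, without matching for the number of shared sites per gene. The share of their genes with a cerebellum-only site was 71.8% and 71.4%, above the 50.1% over all genes of the rule. In the chromatin list, 79 cerebellum-only sites stood beside 668 shared ones, or 10.6% absent (8.57% to 13%), and 28 of 39 genes held a cerebellum-only site. In coding exons alone the share was 9.67% (7.74% to 12%). The histone methyltransferase genes Kmt2c and Nsd1 had 9 and 6, and Kmt2a and the DNA dioxygenase gene Tet2 had 5 each, as did Arid1b. Among the m6A writers, erasers and readers, 12 cerebellum-only sites stood beside 154 shared ones, or 7.23% absent (4.18% to 12.2%), and 10 of 14 genes held one. The reader gene Ythdf3 and the writer component gene Rbm15b had 2 each, and Mettl3, Wtap, Virma, Zc3h13, Cbll1, Rbm15, Alkbh5 and Ythdf1 had 1 each. None of the 14 genes of this list had more cerebellum-only than cerebrum-only sites. In the cell cycle list 1 of 5 genes held a cerebellum-only site, Cdkn1c with 1. It stood beside 8 shared sites of the list, or 11.1% absent (1.99% to 43.5%), an interval that holds 16.5%.

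**Figure D5:**
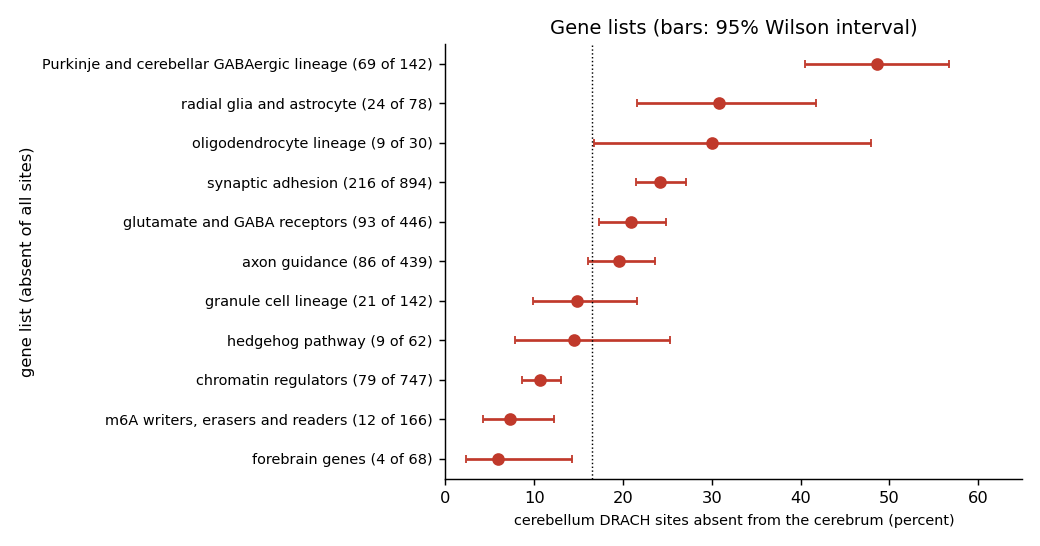
Percent of the cerebellum's DRACH sites that were absent from the cerebrum (horizontal axis) in each gene list with at least 20 such sites (vertical axis), introns included, with 95% Wilson intervals over sites and the share over all genes of the rule, 16.5%, as the dotted line. The Purkinje and cerebellar GABAergic list stands at 48.6% and the forebrain list at 5.88%.

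Markers of other cell types moved with some of these counts, and their part in the results was not tested. Of the choroid plexus list, Otx2 alone met the rule, with 11 cerebellum and 2 cerebrum DRACH sites. The other 3 genes with a site, Clic6, Kcne2 and Sostdc1, went the other way, with 0 cerebellum and 1 cerebrum site each. The defining markers Ttr, Folr1, Kl and Aqp1 had 0 DRACH sites in both libraries. In the radial glia and astrocyte list, 7 of 9 genes held a cerebellum-only site and 24 sites stood beside 54 shared ones, or 30.8% absent (21.6% to 41.7%). Aqp4 led with 10, followed by the glutamate transporter gene Slc1a3 with 4 and the matrix gene Tnc with 3, with 2 each in 3 further genes. Another 4 genes of this list had DRACH sites in the cerebrum alone, Nes with 5, Gfap and Hes1 with 3 each and Fabp7 with 2. In the oligodendrocyte list 3 of 6 genes held a cerebellum-only site, Pdgfra with 4, Mbp with 3 and Olig1 with 2. The microglia list had 2 cerebellum-only sites, in Cx3cr1 and P2ry12, the meninges and fibroblast list had 4, in Col1a1, Col3a1, Foxc1 and Pdgfrb, and the endothelium list had 0 beside 7 shared. No red blood cell gene met the rule.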

How the data were processed

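GLORI was applied to 1 cerebellum and 1 cerebrum library. Site calling by the authors ran GLORI-tools 1.0 once against mm10 and once against a PWK version of it, and the united calls were filtered to rates over 0.1 and to more than 8 reads. The deposited lists hold the position and strand of each retained site, with no rate, count or other score, so depth is unknown and no count model could be run.

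Motifs were read on GRCm38 alone, so the PWK allele can differ from the letters given, and gene models were GENCODE M21, not the release given in the methods. A site was assigned to the longest complete coding isoform covering it, and otherwise to the shortest gene interval of the rule. Each site counted for 1 gene, so 41 of the 6825 genes had all their shared sites counted for an overlapping gene, and 176 of the 7623 sites lay in more than 1 gene interval.

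Shares carry 95% Wilson intervals, which cover counting error over sites only. Differences from shared sites carry 95% intervals with standard errors clustered by gene. Unpaired probabilities were computed with ViennaRNA 2.7.2. Python 3.11.15, numpy 2.4.6, scipy 1.17.1, pandas 2.3.3, pysam 0.24.0, samtools 1.23.1 and matplotlib 3.10.9 were used, and the functions were tested on simulated data. Named genes were the 25 with the most exonic cerebellum-only sites (ties by more shared sites, then by symbol), the 15 with the most among genes without a cerebrum-only DRACH site, up to 4 genes of each list and the 8 longest runs. Where genes of a list tied for the last place, all of them were named or their number was given, and the genes with the most intronic sites were chosen after their values were seen. Some genes that this rule takes are not reported here. The members and lists were chosen with earlier results of these data known. Alternatives covered the gene intervals, the match of positions, the motif, repeats, the isoform and the windows.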

Additional observations from a re-analysis of the deposited data

How the results depend on the processing

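No paired analysis was possible because each tissue had 1 library. Of 88 values under alternatives, 12 moved and none changed direction. The 6 differences from shared sites kept their direction and an interval without 0 under each alternative run. These runs included the comparison with shared sites of all genes and the difference within genes, both chosen after seeing the data. The split by the last base of the 5-mer was not among them. For 5-mers not ending in T, the difference near the stop codon was 0.207 points (-1.45 to 1.86). With at least 5 shared DRACH sites per gene, the share absent from the cerebrum was 14.9%, the share with a cerebrum site within 50 nt 44.7%, the number of genes with a cerebellum-only site 1909 and the number with more of them than cerebrum-only sites 126. These counts fall because fewer genes enter. Without the 1% of genes with the most cerebellum-only sites both shares were 15.8% and 42.7%, and with RRACH (R is A or G in the first place) in place of DRACH they were 15.3% and 39.9%. Without repeat-masked sites the share absent was 16%. The share with a cerebrum site nearby was 21% at 20 nt, 57.1% at 100 nt and 34.1% when only cerebrum DRACH sites counted. Without rates and counts in the lists, a site close to the calling thresholds in either library cannot be told from one far from them.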
